A study of Rattus norvegicus with 20 samples.

Results

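Chemokine ligands are small secreted proteins that direct leukocytes into tissue, and 10 of them were examined here in rat kidney, namely Cxcl1, Cxcl2, Cxcl3, Cxcl10, Cx3cl1, Ccl2, Ccl3, Ccl4, Ccl7 and Ccl20. Their rows were found by gene symbol with no threshold on values, and the members were listed with earlier results of these data known. A row carried the symbol of 9 of them among the 34681 rows of the table, all 9 passed the filter on low values with 15954 rows in all, and Cxcl3 was not analysed because no row bore its symbol. The libraries come from a study of trauma-induced acute kidney injury in rats, and RNA from frozen kidneys was sequenced in 20 libraries. By their labels, 6 libraries were Sham, 6 RM, 5 HS and 3 RM-HS, where RM-HS carries both names, and neither abbreviation is written out there. The sources used here give no strain, sex or age of the rats, nor how each injury was made or how long before sampling. Nor do they say that the libraries stem from different animals, so the p-values refer to spread among these samples, part of which may be technical. The study's design text lists 19 libraries, 5 of them RM, but 6 carry the RM label and all 6 entered.

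Ligands of the CXC family with a glutamate-leucine-arginine motif, such as Cxcl1 and Cxcl2, draw neutrophils through the receptor Cxcr2, while Ccl2 and Ccl7 draw monocytes through Ccr2. Cxcl10 attracts activated T cells through Cxcr3, Ccl3 and Ccl4 attract macrophages and T cells, Ccl20 is the ligand of Ccr6, and Cx3cl1 is a membrane-anchored ligand of Cx3cr1 that proteases can shed. In kidney, tubule and endothelial cells as well as resident macrophages can make chemokines after injury, and many of the genes are read out under the transcription factor NF-kB.

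Sequence upstream of the genes is shown as a description, since the NF-kB recognition motif, kappaB, is the textbook element of chemokine promoters. RefSeq promoters of the GRCr8 build, a later build than that of the table, were matched for 6 of 10 members (Cxcl1, Cxcl2, Cxcl10, Cx3cl1, Ccl7 and Ccl20). The 250 bases before the annotated start are given 5′ to 3′ on the gene's strand, with capitals where a match to kappaB was found on either strand, and overlapping matches were merged. They are shown for 4 members that were higher in at least 1 injury group and for Cx3cl1, which passed in no comparison. No promoter was matched for Ccl2, Ccl3, Ccl4 or Cxcl3, so no ligand that fell was searched. Whether the motifs go with the direction of change was not tested.
Cxcl1 (chr14:17479322-17479571, minus strand): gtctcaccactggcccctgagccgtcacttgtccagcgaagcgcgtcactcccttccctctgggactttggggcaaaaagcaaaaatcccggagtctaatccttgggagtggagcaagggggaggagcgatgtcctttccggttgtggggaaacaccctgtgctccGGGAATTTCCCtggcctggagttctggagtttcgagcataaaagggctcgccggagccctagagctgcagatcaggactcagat
Cxcl2 (chr14:17467256-17467505, minus strand): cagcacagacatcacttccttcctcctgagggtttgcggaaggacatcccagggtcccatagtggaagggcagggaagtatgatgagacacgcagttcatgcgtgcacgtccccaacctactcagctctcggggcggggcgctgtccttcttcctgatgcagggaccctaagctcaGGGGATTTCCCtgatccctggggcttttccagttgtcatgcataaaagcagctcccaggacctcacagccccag
Cxcl10 (chr14:15988816-15989065, plus strand): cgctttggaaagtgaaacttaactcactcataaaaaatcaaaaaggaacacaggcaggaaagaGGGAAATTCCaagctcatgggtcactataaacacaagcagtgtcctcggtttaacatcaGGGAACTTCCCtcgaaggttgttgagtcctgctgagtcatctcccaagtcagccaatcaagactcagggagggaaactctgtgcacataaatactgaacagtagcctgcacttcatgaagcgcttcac
Ccl20 (chr9:91836909-91837158, plus strand): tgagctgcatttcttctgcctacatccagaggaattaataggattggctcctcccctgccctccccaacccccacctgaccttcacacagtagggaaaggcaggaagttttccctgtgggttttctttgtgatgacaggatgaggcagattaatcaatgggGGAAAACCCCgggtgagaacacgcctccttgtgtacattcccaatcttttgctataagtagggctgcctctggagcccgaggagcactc
Cx3cl1 (chr19:10242821-10243070, minus strand): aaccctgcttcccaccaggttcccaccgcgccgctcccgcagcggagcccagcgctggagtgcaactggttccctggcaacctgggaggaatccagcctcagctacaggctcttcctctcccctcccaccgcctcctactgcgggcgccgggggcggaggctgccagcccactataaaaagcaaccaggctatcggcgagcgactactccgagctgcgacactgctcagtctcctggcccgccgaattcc
A kappaB match lay in 5 of the 6 promoters and in 6.33% of 33469 promoters of the same length. In Cxcl1 it ran from 84 to 74 bases before the start and in Cxcl2 from 74 to 64. Cxcl10 held 1 match starting at 187 and another run starting at 128, Ccl20 had one at 89 to 80, and Ccl7 (sequence not shown) had one at 59 to 50. Cx3cl1 had none in this window. A loose form of the AP-1 motif with any middle base, TGANTCA, was found in Cxcl10 (TGAGTCA) and Ccl7 (TGATTCA) and in 6.34% of promoters. The match in Ccl7 is not the strict motif, which has C or G in the middle. The interferon response motif (TTTC, any 2 bases, TTTC) was found in Cxcl10 alone of the 6, against 3.41% of promoters, and TATAAA was found in Cxcl10, Cx3cl1 and Ccl7, against 12.9%. Both strands were searched, and these matches describe letters, not binding.

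Levels are the deposited normalized read counts and compare libraries for 1 gene, not genes with each other, since they are not divided by gene length. Libraries held 45047179 to 109940948 reads, of which 42.2% to 54.7% lay on 14 mitochondrial rows. Umod, the urinary protein of the thick ascending limb, was between 53265 and 235326 in every library. Tissue markers differed between Sham and the injury groups, where 53%, 46.4% and 42.3% of all tested rows passed the test given below in RM, HS and RM-HS. Of 8 thick ascending limb markers 7 fell in RM, 8 in HS and 5 in RM-HS, of 7 early proximal tubule markers 7, 5 and 7 rose, and of 8 podocyte markers 7, 5 and 3 rose, with 1 falling in RM-HS. The summed thick ascending limb markers were 210048 to 366394 in Sham and 91282 to 157772 in HS, and the part of such differences in the ligand levels was not tested. The Sham libraries were not alike. Slc5a2, which takes up glucose in the first part of the proximal tubule, reached 6791 (Sham 1) and 7863 (Sham 6), yet only 48.2, 396, 180.0 and 43.1 in Sham 2 to 5, while no injury library was below 9389. Results for the ligands are therefore also given against Sham 1 and Sham 6 alone where that changed a call. Calls for receptors, markers and other listed genes are against all 6 Sham libraries only. The summed early proximal tubule markers were 259308 and 272227 in Sham 1 and Sham 6 and 62527 to 108316 in Sham 2 to 5. RM ran from 215309 to 328173. Summed podocyte markers were 10724 and 10211 in Sham 1 and Sham 6, and 9642 to 11841 in HS. All 3 comparisons with Sham use the same Sham libraries, so their results are not independent of each other. In such bulk tissue, more cells of a type and more RNA per cell cannot be told apart.

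Against Sham, 5 of the 9 ligands were higher and 2 lower in RM, 1 higher and 3 lower in HS, and 4 higher and 1 lower in RM-HS. Ccl20 rose and Ccl4 fell in all 3 injury groups, Cxcl1, Cxcl2 and Cxcl10 rose in RM and in RM-HS, Ccl7 rose in RM, Ccl3 fell in RM and in HS, and Ccl2 fell in HS. Cx3cl1 passed in none. The test was limma on log2(value + 1) with p-values adjusted by Benjamini-Hochberg over all tested rows, and a gene passed at an adjusted p under 0.05. Among all tested rows, 53% passed in RM (26.2% higher and 26.8% lower), 46.4% in HS (23.3% and 23.2%) and 42.3% in RM-HS (21.3% and 21.0%), so that passing was common in these comparisons. Counts against Sham from every gene list below are to be read beside these shares. The median log2 fold change of the 9 ligands was 1.26 in RM, -0.77 in HS and 1.72 in RM-HS, and that of all tested rows was -0.04, -0.03 and -0.03. Groups that did not overlap at all were seen for 2 higher and 1 lower ligand in RM (13.3% and 12.4% of rows), 1 and 1 in HS (13.7% and 12.2%), and 4 and 1 in RM-HS (16.5% and 16.1%).

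**Figure D1:**
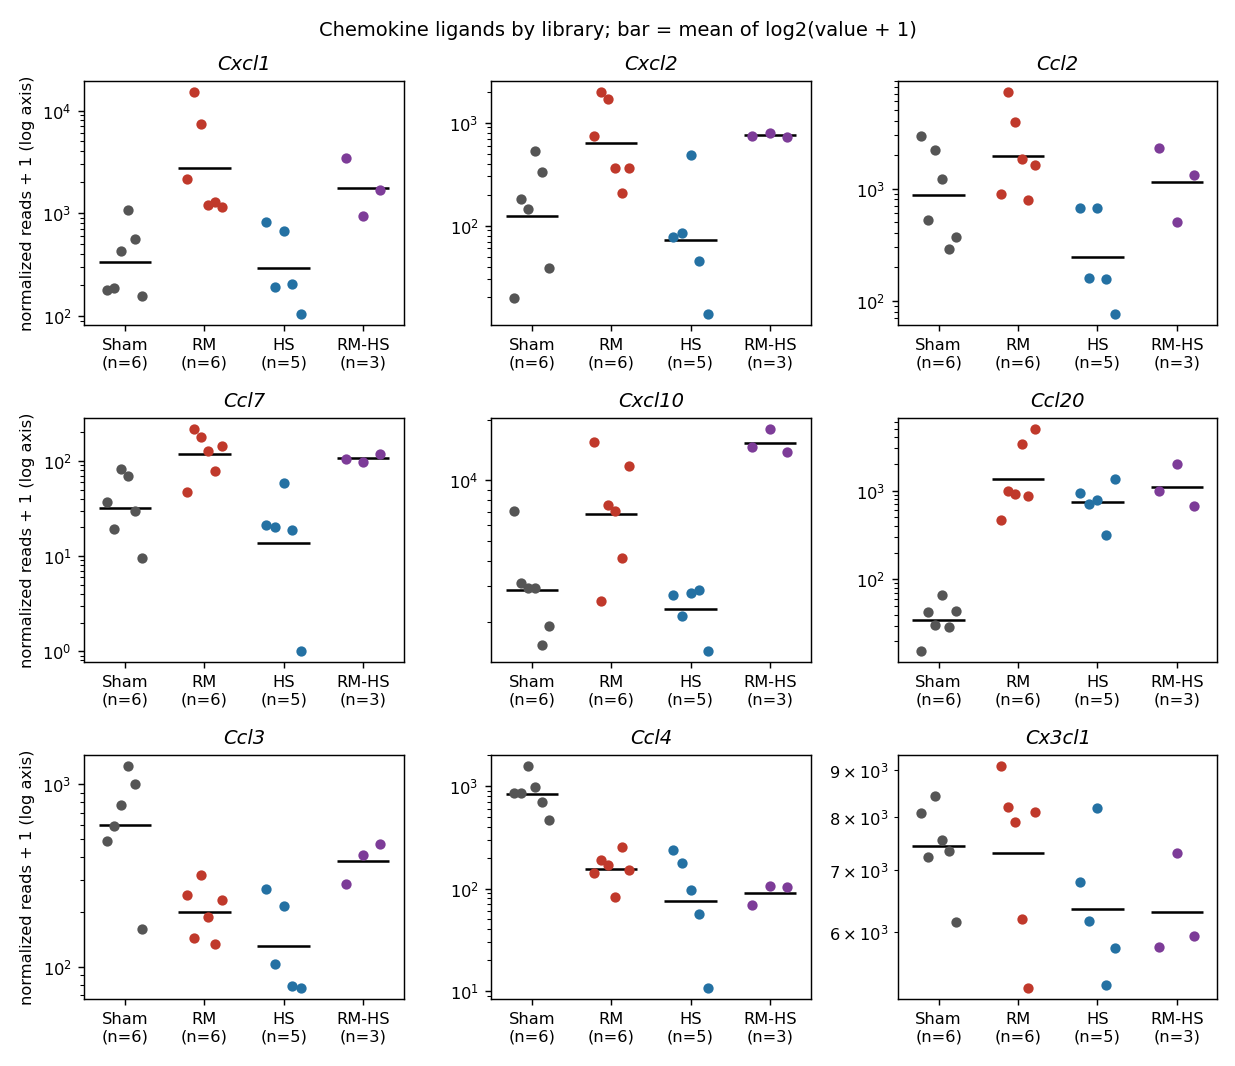
Normalized reads plus 1 on a log axis for the 9 ligands, with 1 point per library in Sham (n = 6), RM (n = 6), HS (n = 5) and RM-HS (n = 3) and a bar at the mean of log2(value + 1). Every Ccl20 point of the injury groups lies above every Sham point, every Ccl4 point of the injury groups lies below every Sham point, and the Cx3cl1 groups overlap.

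**Figure D2:**
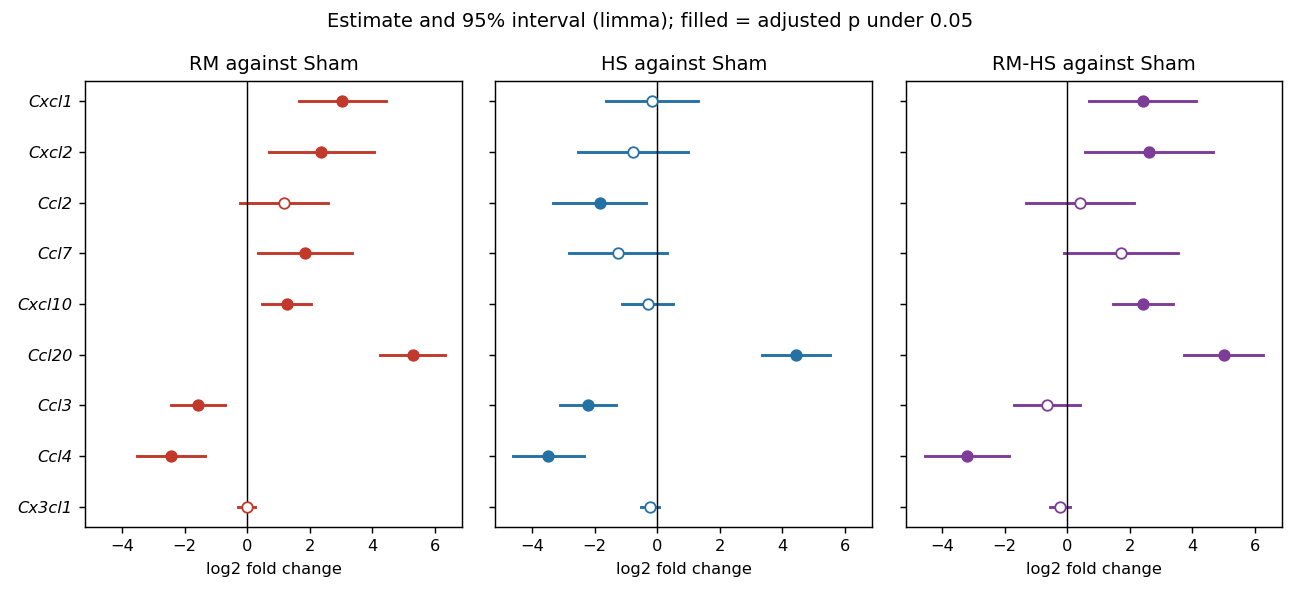
The log2 fold change of each ligand against Sham (x axis) with its 95% interval from limma, in RM, HS and RM-HS. Filled points passed at an adjusted p under 0.05, which were 7 of 9 in RM, 4 in HS and 5 in RM-HS.

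The neutrophil attractants Cxcl1 and Cxcl2 lie side by side on chromosome 14, 10.3 kb apart (rn6, Cxcl1 row GSRG0010540 at 18743678 to 18745457 and Cxcl2 row GSRG0010539 at 18731346 to 18733391). Cxcl1 had a low of 156, a median of 310.2 and a high of 1078 in Sham, and in RM it had a low of 1161, a median of 1726 and a high of 15096. Every RM library thus stood above every Sham library, although RM 2 (15096) and RM 3 (7341) were far above the other 4. Its log2 fold change was 3.04 ± 0.67 (SE, limma adjusted p = 0.00078), a fold of 8.23. The HS libraries, at 826, 190.5, 674, 203 and 104, lay within the Sham range except for the lowest, and HS did not pass (-0.17 ± 0.70, limma adjusted p = 0.86). In RM-HS Cxcl1 stood at 3481, 947 and 1705, of which 1 library lay inside the Sham range, and the difference passed (2.41 ± 0.82, limma adjusted p = 0.022). That call was lost without RM-HS 1 (1.93, limma adjusted p = 0.13) or without RM-HS 3 (2.44, limma adjusted p = 0.057).

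Cxcl2 ranged from 19.0 to 525 in Sham with a median of 162, and from 206 to 1980.3 in RM with a median of 553. The Sham and RM ranges overlapped, with RM 2 (1980.3) and RM 3 (1690.3) again the highest, and the log2 fold change was 2.37 ± 0.81 (limma adjusted p = 0.018). Without Sham 1, the lowest control, it was 1.85 and did not pass (limma adjusted p = 0.051). RM-HS was the tightest group, at 736, 798 and 729.7, all above the Sham range, or 2.61 ± 0.99 above Sham in log2 (limma adjusted p = 0.039). This call was lost in 6 of 9 fits that left out 1 library of these groups, with values of 2.09 to 2.66, namely without Sham 1, Sham 3, Sham 6 or any of the 3 RM-HS libraries, and with edgeR (1.88, edgeR adjusted p = 0.087) and DESeq2 (1.87, DESeq2 adjusted p = 0.1). HS, at 77.3, 82.8, 485, 44.1 and 12.8, did not pass (-0.77 ± 0.85, limma adjusted p = 0.48). Against Sham 1 and Sham 6 alone, where Cxcl2 stood at 19.0 and 37.7, the log2 fold change was 4.52 in RM (limma adjusted p = 0.0022) and 4.76 in RM-HS (limma adjusted p = 0.0045), and in HS it took the opposite sign at 1.38 without passing (limma adjusted p = 0.32).

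Cxcr2, the neutrophil receptor of both, was at 4.71 to 34.4 in Sham, 53.3 to 127 in RM, 14.4 to 50.5 in HS and 65.2 to 128 in RM-HS. It rose in each, by log2 2.97 ± 0.39 in RM (limma adjusted p = 3.8e-06), 1.23 ± 0.41 in HS (limma adjusted p = 0.019) and 3.05 ± 0.48 in RM-HS (limma adjusted p = 5.6e-05). Cxcr1, the other such receptor, was at 2.28 or less and was not tested. Of 8 tested neutrophil markers 7 rose in RM, 1 rose and 1 fell in HS, and 7 rose in RM-HS, among them the collagenase Mmp8 (3.15 ± 0.50 in RM) and the calprotectin subunit S100a9 (2.31 ± 0.44 in RM). The summed level of the 10 listed markers in the table was 2481 to 6821 in Sham, 6079 to 22507 in RM, 2800 to 9078 in HS and 8639 to 14571 in RM-HS, and Elane, the neutrophil elastase, was at 0 in every RM and every HS library. RM 2 and RM 3 had the highest sums, at 20965 and 22507, as they had the highest Cxcl1 and Cxcl2. Most of these sums came from S100a8 and S100a9, at 5810 and 12356 in RM 2 and 6990 and 12157 in RM 3. Whether cell content has a part in the levels of Cxcl1 and Cxcl2 was not tested.

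The monocyte attractants Ccl2 and Ccl7 are also neighbours, 9.22 kb apart on chromosome 10 (Ccl2 row GSRG0005660 at 69412065 to 69413863 and Ccl7 row GSRG0005661 at 69423083 to 69424933). Ccl2 was widely spread in Sham, with a low of 291, a median of 865 and a high of 2938. RM reached from 781 to 7211 with a median of 1717, and RM-HS stood at 2302, 498 and 1328. Neither passed (1.17 ± 0.68, limma adjusted p = 0.15, and 0.40 ± 0.83, limma adjusted p = 0.72), and their 95% intervals ran from -0.24 to 2.59 and from -1.33 to 2.14. HS was the low group, at 672, 159, 675, 156 and 75.2, and Ccl2 fell there (-1.84 ± 0.71, limma adjusted p = 0.04). The fall was lost in 6 of 11 fits that left out 1 library, with values of -1.74 to -1.42 (limma adjusted p = 0.07 to 0.13), namely without Sham 1, Sham 3, Sham 4, HS 2, HS 4 or HS 5, and against Sham 1 and Sham 6 alone (-2.10, limma adjusted p = 0.12). It was also lost with no filter on low values (limma adjusted p = 0.05), in a fit of only the groups compared (limma adjusted p = 0.054), among libraries named R (-1.06, limma adjusted p = 0.31) and with edgeR (-1.81, adjusted p = 0.051).

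Ccl7 was a low gene with the same ordering of groups by mean as Ccl2. It ranged from 8.57 to 81.0 in Sham with a median of 32.4, and from 45.5 to 214 in RM with a median of 134, where it rose (1.85 ± 0.72, limma adjusted p = 0.035). This rise was lost in 7 of 12 fits that left out 1 library, namely without Sham 2, Sham 5, Sham 6, RM 2, RM 3, RM 4 or RM 6, with values of 1.5 to 1.83 (limma adjusted p = 0.055 to 0.088), and against Sham 1 and Sham 6 alone it was 2.64 (limma adjusted p = 0.059). RM-HS stood at 103, 95.4 and 118.3, each above every Sham library, yet the difference did not pass (1.72 ± 0.88, limma adjusted p = 0.12). It passed with a pseudocount of 8 (1.47, limma adjusted p = 0.04), in a fit of only the groups compared (limma adjusted p = 0.049) and among libraries named R (limma adjusted p = 0.041), and RM-HS differed from RM by -0.13 (limma adjusted p = 0.96). HS stood at 19.9, 19.3, 56.8, 17.6 and 0, the last with no read, which allows up to 4.80 at 3 reads, and it did not pass (-1.25 ± 0.75, limma adjusted p = 0.18).

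Ccr2, the receptor of Ccl2 and Ccl7, had no row under its symbol and was not analysed. Of 11 monocyte and macrophage markers 3 rose and 1 fell in RM, 1 rose and 4 fell in HS, and 4 rose and 3 fell in RM-HS, with Itgam, an integrin shared with neutrophils, rising in RM (1.94 ± 0.29) and Adgre1, the F4/80 antigen, falling in HS (-1.57 ± 0.31) and RM-HS (-2.06 ± 0.36). Their summed level was 36948 to 76198 in Sham, 40848 to 48779 in RM, 27332 to 46155 in HS and 46799 to 51206 in RM-HS, and none of these markers was at 0 throughout a group. Over all tested rows 53%, 46.4% and 42.3% passed in RM, HS and RM-HS. The part of these markers in the levels of Ccl2 and Ccl7 was not tested.

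Cxcl10, which interferons and NF-kB induce, was highest in RM-HS (row GSRG0010196, chromosome 14, 17210718 to 17212936). Sham ran from 1531 to 7026 with a median of 2926, and only Sham 1 exceeded 3121. RM ran from 2541 to 15427 with a median of 7341 and overlapped Sham, and the difference passed (1.26 ± 0.37, limma adjusted p = 0.0077). RM-HS, at 14657, 17910.3 and 13793, lay above all Sham libraries, which made 2.42 ± 0.46 in log2 (limma adjusted p = 0.0003) and a fold of 5.37. HS, at 2722, 2134, 2765, 2867 and 1427, did not pass (-0.31 ± 0.39, limma adjusted p = 0.55). Against Sham 1 and Sham 6 alone the RM difference was 0.90 and did not pass (limma adjusted p = 0.21), while that of RM-HS was 2.07 and passed (limma adjusted p = 0.019). The span of Art3 covers Cxcl10, and Art3 had at most 120.0 in any library.

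Relatives and regulators of Cxcl10 gave the following values. Its neighbour Cxcl11, 12.5 kb away and a ligand of the same receptor, rose in RM (2.06 ± 0.73, limma adjusted p = 0.022), HS (2.51 ± 0.76, limma adjusted p = 0.011) and RM-HS (3.44 ± 0.89, limma adjusted p = 0.0042). Cxcl9, the third ligand of Cxcr3, fell in RM (-1.44 ± 0.49, limma adjusted p = 0.019) and did not pass in HS or RM-HS; both genes were picked for this after their values were seen. Of 14 interferon target genes, 9 fell and none rose in RM, and 1 rose and 6 fell in HS and again in RM-HS, with the antiviral genes Mx2 (-2.55 ± 0.38) and Oas1a (-2.07 ± 0.41) and Usp18, a brake on interferon signalling (-2.35 ± 0.37), all lower in RM. Cxcr3 itself passed only in RM-HS, where it was lower (-1.08 ± 0.43, limma adjusted p = 0.047).

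Ccl20 showed the widest separation from Sham of the 9 (row GSRG0032423, chromosome 9, 88918425 to 88921003). Its Sham libraries lay between 14.4 and 64.7 with a median of 35.4, or 19 to 55 reads. RM lay between 467 and 4925 with a median of 954, and RM 4 (3326) and RM 6 (4925) stood above the other 4, which were not the libraries highest for Cxcl1. HS was at 949.7, 707, 777, 313 and 1349.7, and RM-HS at 988, 2005 and 671. No injury library overlapped Sham. The log2 fold changes were 5.29 ± 0.50 in RM (limma adjusted p = 6.9e-08), 4.43 ± 0.52 in HS (limma adjusted p = 2.6e-06) and 5.00 ± 0.61 in RM-HS (limma adjusted p = 3.8e-06), or folds of 39.2, 21.5 and 32.0. All 3 passed under every alternative tried. Its receptor Ccr6 was at 33.4 or less in every library and passed in no comparison with Sham, with limma adjusted p of 0.24, 0.89 and 0.066.

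Ccl3 and Ccl4, attractants that macrophages, T cells and neutrophils release, lie 13.5 kb apart on chromosome 10 (Ccl3 row GSRG0006685 at 70869516 to 70871066 and Ccl4 row GSRG0005677 at 70884595 to 70886067). Ccl4 was at 468 to 1559 in Sham with a median of 849.6, and at 80.8 to 256 in RM with a median of 161. HS stood at 239, 177, 94.7, 55.8 and 9.61, and RM-HS at 68.6, 105 and 103. Each injury library was below each Sham library. Ccl4 fell in RM (-2.43 ± 0.52, limma adjusted p = 0.00063), in HS (-3.48 ± 0.55, limma adjusted p = 4.4e-05) and in RM-HS (-3.21 ± 0.64, limma adjusted p = 0.00052). Against Sham 1 and Sham 6 alone the RM difference was -2.01 and missed the threshold (limma adjusted p = 0.06), and HS and RM-HS passed at -3.06 (limma adjusted p = 0.012) and -2.79 (limma adjusted p = 0.027).

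Ccl3 ranged from 161 to 1254 in Sham with a median of 681, where Sham 6 was lowest, and from 133 to 316 in RM with a median of 208. HS was at 267, 103, 216, 77.4 and 75.2, and RM-HS at 284, 409.6 and 473. Sham 6 alone made these groups overlap, since the other 5 Sham libraries were at 491 or more. Ccl3 fell in RM (-1.58 ± 0.41, limma adjusted p = 0.003) and in HS (-2.21 ± 0.43, limma adjusted p = 0.00033), and RM-HS did not pass (-0.65 ± 0.50, limma adjusted p = 0.31) unless Sham 6 was left out (-1.03, limma adjusted p = 0.047). Against Sham 1 and Sham 6 alone the RM difference was -0.49 (limma adjusted p = 0.47), the HS difference -1.13 (limma adjusted p = 0.11) and the RM-HS difference 0.43 (limma adjusted p = 0.59), so that Ccl3 passed in none of the 3 with these controls. Ccr1, a receptor of Ccl3 and Ccl7, rose in RM (2.16 ± 0.34), HS (1.52 ± 0.36) and RM-HS (2.42 ± 0.42).

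**Figure D3:**
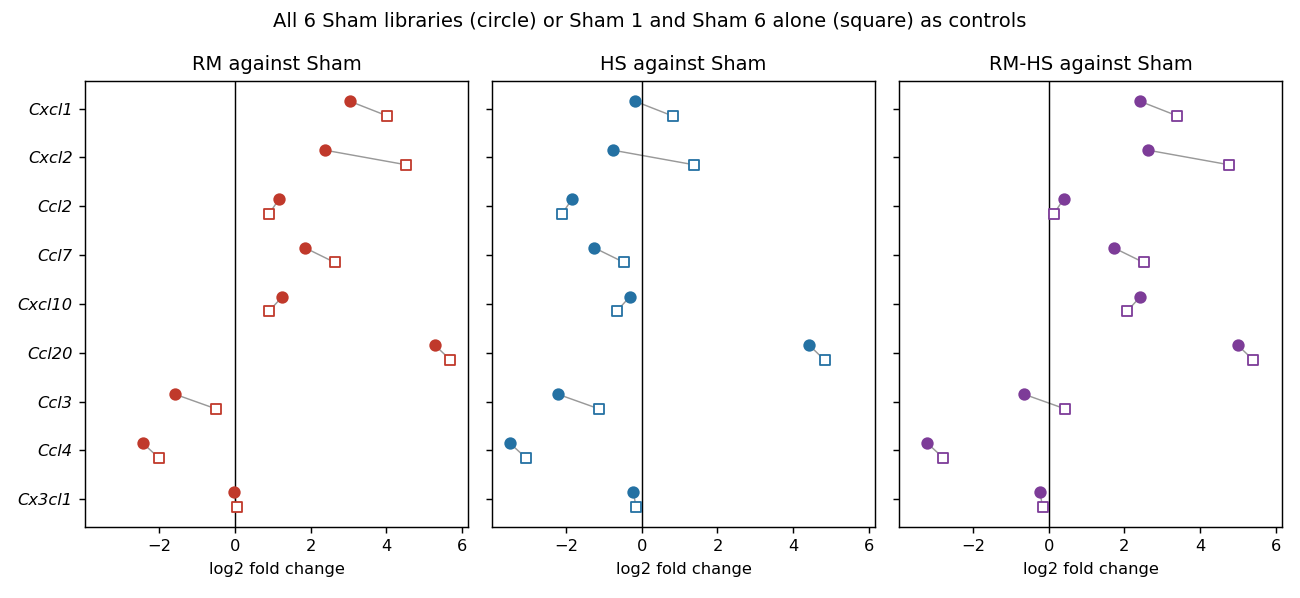
The log2 fold change of each ligand (x axis) in RM, HS and RM-HS with all 6 Sham libraries (filled circles) and with Sham 1 and Sham 6 alone (open squares) as controls, joined by a line. Cxcl2 in RM moves from 2.37 to 4.52 and Ccl3 in RM from -1.58 to -0.49, while Ccl20 in RM moves from 5.29 to 5.70.

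Cx3cl1, the anchored ligand, kept a narrow range (row GSRG0014729, chromosome 19, 10644270 to 10654131). Sham ran from 6154 to 8433 with a median of 7452, and RM from 5215 to 9072 with a median of 7988. HS was at 6802, 6161, 8177, 5254 and 5770.2, and RM-HS at 5785, 7312 and 5945. The groups overlapped in each comparison. The log2 differences from Sham were -0.02 ± 0.13 in RM (95% interval -0.29 to 0.24), -0.23 ± 0.13 in HS (-0.51 to 0.06) and -0.24 ± 0.16 in RM-HS (-0.56 to 0.09), none of which passed (limma adjusted p of 0.89, 0.18 and 0.24). Its receptor Cx3cr1, a marker of resident mononuclear phagocytes, fell in HS (-1.23 ± 0.31, limma adjusted p = 0.003) and passed in neither RM (-0.07 ± 0.30) nor RM-HS (-0.84 ± 0.36, limma adjusted p = 0.068). Of the 5 sheddase and scavenging genes listed, 2 rose in RM, 3 in HS and 2 in RM-HS and none fell, and the shedding protease Adam17 rose in all 3 (0.68 ± 0.16, 0.51 ± 0.17 and 0.77 ± 0.20) while Adam10 rose in HS (0.50 ± 0.13).

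The injuries were then set against each other. RM was above HS for 5 of 9 ligands, and none was below it, where 23.8% of tested rows passed, 11.1% higher and 12.6% lower. The log2 differences were 3.21 ± 0.70 for Cxcl1 (limma adjusted p = 0.0024), 3.14 ± 0.85 for Cxcl2 (limma adjusted p = 0.01), 1.57 ± 0.39 for Cxcl10 (limma adjusted p = 0.0063), 3.01 ± 0.71 for Ccl2 (limma adjusted p = 0.0044) and 3.11 ± 0.75 for Ccl7 (limma adjusted p = 0.0051). For Cxcl1 and Ccl2 every RM library was above every HS library (a separation seen in 6.04% of rows, with 8.21% the other way), and for the other 3 the groups overlapped. Ccl20 did not pass (0.86 ± 0.52, limma adjusted p = 0.25, 95% interval -0.22 to 1.95), nor did Ccl4 (1.05 ± 0.55, limma adjusted p = 0.17), Ccl3 (0.63 ± 0.43, limma adjusted p = 0.3) or Cx3cl1 (0.20 ± 0.13, limma adjusted p = 0.29).

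RM-HS was above HS for 5 of 9 ligands and below it for none, where 20.6% of rows passed, 10% higher and 10.6% lower. They were Cxcl1 (2.59 ± 0.85, limma adjusted p = 0.036), Cxcl2 (3.38 ± 1.02, limma adjusted p = 0.024), Cxcl10 (2.73 ± 0.47, limma adjusted p = 0.00064), Ccl3 (1.56 ± 0.52, limma adjusted p = 0.038) and Ccl7 (2.97 ± 0.91, limma adjusted p = 0.025). In each of the 5 the RM-HS libraries all stood above the HS libraries, a separation seen in 12.8% of rows, with 12.2% the other way. Ccl2 missed the threshold (2.24 ± 0.86, limma adjusted p = 0.07). These calls were fragile: leaving out 1 library gave between 1 and 6 passing ligands, and edgeR on recovered reads passed only Cxcl10 and Ccl7. RM-HS held only 3 libraries, but calls were lost without an HS library as well as without an RM-HS library. Cxcl10 was the one that passed under every alternative tried.

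RM-HS against RM gave 0 of 9, where 1.08% of rows passed (0.395% higher and 0.689% lower), and both groups overlapped for every ligand, against 4.32% of rows wholly higher and 3.44% wholly lower. At an unadjusted p under 0.05 the count was 1, namely Cxcl10 (1.17 ± 0.46, unadjusted p = 0.019, limma adjusted p = 0.21), and edgeR and DESeq2 also passed 0. The 95% intervals of the log2 difference ran from -2.34 to 1.08 for Cxcl1, from -1.82 to 2.30 for Cxcl2 and from -1.96 to 1.69 for Ccl7, and that of Cx3cl1 was narrower, from -0.54 to 0.11.

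A further contrast asked whether the combined group departed from the sum of the single differences (the RM-HS mean less the means of RM and HS, plus that of Sham, in log2). It passed for 3 of 9 ligands, higher for 2 and lower for 1, against 31.7% of all rows (14.9% higher and 16.8% lower). Ccl20 was 4.72 ± 0.80 below the sum (a departure of -4.72, limma adjusted p = 0.0003), since RM-HS (1221 ± 697, SD) stood near RM (1915 ± 1795) and HS (819.5 ± 377) and each was far above Sham (36.8 ± 17.1). Ccl3 was above the sum (3.14 ± 0.66, limma adjusted p = 0.0014), with means of 713 ± 388 in Sham, 209 ± 69.4 in RM, 148 ± 88.0 in HS and 389 ± 96.2 in RM-HS. Ccl4 was above it too (2.70 ± 0.84, limma adjusted p = 0.019), at 901 ± 367, 165 ± 58.1, 115 ± 92.6 and 92.0 ± 20.3 in the same order. Cxcl10 departed by 1.47 ± 0.60 and did not pass (limma adjusted p = 0.066), unless Sham 5 (1.66, limma adjusted p = 0.041), RM 1 (1.71, limma adjusted p = 0.024) or RM 6 (1.63, limma adjusted p = 0.047) was left out. Against Sham 1 and Sham 6 alone Ccl4 no longer passed (2.28, limma adjusted p = 0.14).

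Library names begin with R or S, unevenly across groups: 5 of 6 RM libraries and 2 of 5 HS libraries bore S, and all others R. No source used here says what the letter stands for. With the letter as a covariate 4 ligands passed in RM against Sham, and Ccl3 (-0.85, limma adjusted p = 0.26), Ccl4 (-1.17, limma adjusted p = 0.19) and Ccl7 (2.66, limma adjusted p = 0.056) did not. Over all tested rows 4551 passed in RM against Sham with the letter and 617 for additivity, against 8455 and 5054 without it. In the same fit Ccl2 did not pass in HS against Sham (-1.61, limma adjusted p = 0.12), Cxcl10 alone passed in RM-HS against HS (2.43, limma adjusted p = 0.0032), Ccl4 was added in RM against HS (1.71, limma adjusted p = 0.03), and Ccl20 alone passed for additivity (-4.02, limma adjusted p = 0.048). Among libraries named R, RM 1 was the lone RM library, so for RM against Sham only sizes are given. The log2 fold change there was 2.43 for Cxcl10, -2.59 for Ccl4, 3.76 for Ccl20 and 2.69 for Cxcl1. In those libraries HS against Sham passed for Ccl3 (-1.72, limma adjusted p = 0.023), Ccl4 (-2.40, limma adjusted p = 0.00039) and Ccl20 (4.55, limma adjusted p = 2.7e-05), and Ccl7 was added in RM-HS against Sham (1.72, limma adjusted p = 0.041). Of 15954 tested rows, 5281 passed there in HS against Sham and 6013 in RM-HS against Sham, against 7410 and 6749 with all libraries.

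Libraries of the same group differed from each other along shared lines. After subtraction of group means from log2(value + 1), Cxcl1 followed Cxcl2 over the 20 libraries (Pearson r = 0.78, Spearman rho = 0.79), and Ccl2 followed Ccl7 (r = 0.69, rho = 0.79) and Cxcl1 (r = 0.66, rho = 0.62). Ccl20 followed none of the other 8, with r between -0.21 and 0.09, and Cxcl10 was at -0.26 with Cxcl1. Ccl4 and Ccl7 had r = 0.73 but 0.31 over 19 libraries without HS 5, which was lowest of HS for both, whereas Cxcl1 with Cxcl2 (0.75) and Ccl2 with Ccl7 (0.70) moved little. These coefficients are descriptions of 36 pairs in libraries that share depth and tissue make-up, and no test was made of them.

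**Figure D4:**
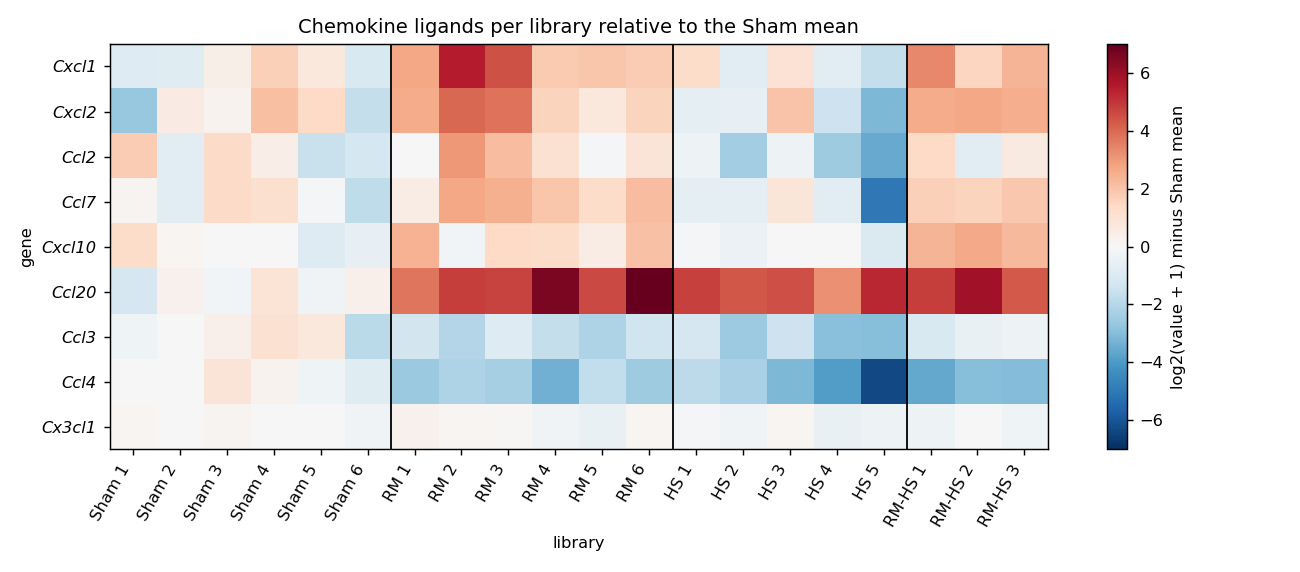
log2(value + 1) of each ligand in each of the 20 libraries minus the mean of the 6 Sham libraries, with red above and blue below that mean and lines between groups. RM 2 and RM 3 are the reddest for Cxcl1, Cxcl2 and Ccl2, whereas RM 4 and RM 6 are the reddest for Ccl20, and HS 5 is the bluest for Ccl4 and Ccl7.

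**Figure D5:**
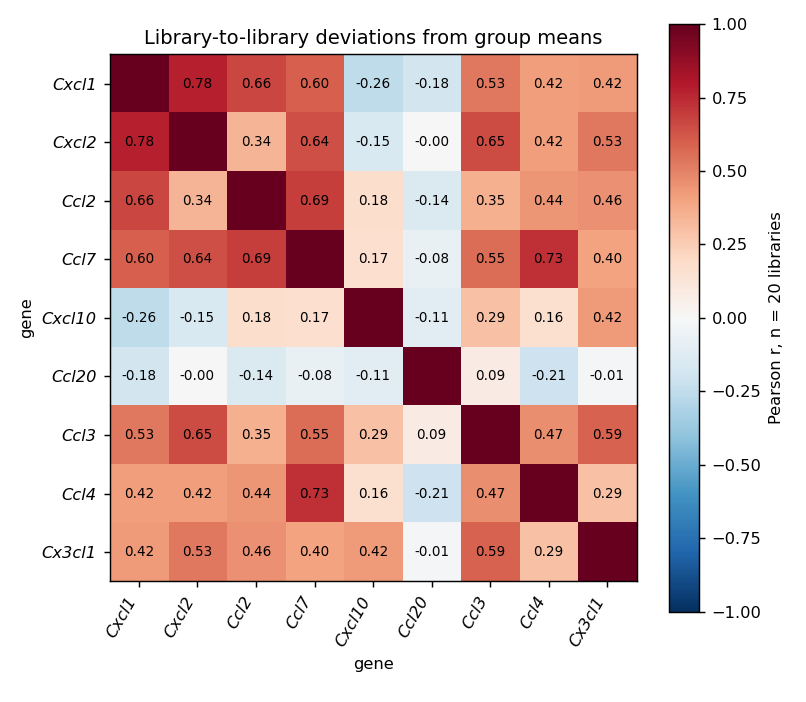
Pearson r between pairs of ligands over 20 libraries after group means were subtracted, from blue (negative) to red (positive). Cxcl1 with Cxcl2 is at 0.78, and the row of Ccl20 is pale, between -0.21 and 0.09.

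Genes whose log2 values were most alike to each ligand over the 20 libraries were looked up among 11563 rows, without subtraction of group means. The closest to Cxcl1 was Il6, the acute inflammatory cytokine (r = 0.91), followed by the adhesion molecule Selp (0.87) and the NF-kB modulator Nfkbiz (0.86). Cxcl2 was closest to Csf3, the growth factor of neutrophils (0.91), with Gch1 (0.89) and the ribonuclease Zc3h12a (0.89) next, and Ccl7 was closest to Il6 (0.84). Ccl20 was closest to the lipid droplet gene Plin2 (0.96), with Hnrnpab (0.96) and Etf1 (0.95), and Cxcl10 was closest to the lipid phosphatase gene Plpp3 (0.90), with Depp1 (0.90) and Aldh1a3 (0.87). Ccl3 was closest to Parp6 (0.89), Ccl4 to Drosha (0.90), Ccl2 to Hdac2 (0.83) and Cx3cl1 to Adora1 (0.75). Such likeness includes the differences between groups, and after group means were subtracted r was 0.78 for Cxcl1 with Il6, 0.84 for Cxcl2 with Csf3, 0.84 for Ccl7 with Il6 and 0.67 for Ccl20 with Plin2.

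Other genes of the pathway were counted from lists, where 53%, 46.4% and 42.3% of all tested rows passed in RM, HS and RM-HS. Of 14 NF-kB and transcript stability regulators, 12 rose and 1 fell in RM, 7 rose in HS, and 10 rose in RM-HS. The stress factor Atf3 rose in RM (6.24 ± 0.31), HS (2.99 ± 0.33) and RM-HS (6.28 ± 0.38), as did Zfp36, which speeds decay of cytokine transcripts (2.94 ± 0.16, 0.76 ± 0.17 and 2.88 ± 0.20), and the NF-kB inhibitor Nfkbia passed in RM (1.27 ± 0.13) and RM-HS (1.54 ± 0.16) but not in HS (0.09 ± 0.13). Of 7 upstream cytokines 2 rose in RM and in RM-HS and 2 fell in HS. Il6 rose in RM (4.86 ± 0.65) and RM-HS (3.20 ± 0.80), and Il1b (-2.18 ± 0.34) and Tnf (-1.81 ± 0.43) fell in HS.

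Of 23 other chemokine ligands tested, 3 rose and 5 fell in RM, 4 rose and 6 fell in HS, and 5 rose and 4 fell in RM-HS. As shares these were no larger than the 53%, 46.4% and 42.3% of all tested rows that passed. Cxcl16, a membrane-bound ligand, rose in each (0.98 ± 0.17, 0.81 ± 0.18 and 1.41 ± 0.21), and Cxcl12 (-0.92 ± 0.26, -1.44 ± 0.27 and -1.23 ± 0.31) and the B cell attractant Cxcl13 (-2.21 ± 0.51, -2.97 ± 0.53 and -4.02 ± 0.62) fell in each. Of 14 chemokine receptors 3 rose in RM, 3 rose and 2 fell in HS, and 3 rose and 3 fell in RM-HS, including a rise of Cxcr4 in RM (0.60 ± 0.20) and RM-HS (0.76 ± 0.24) and a fall of the dendritic cell receptor Xcr1 in RM-HS (-4.57 ± 0.64). Xcr1 stood at 0 to 3.49 in RM-HS (0 to 3 reads) against 14.1 to 86.6 in Sham, so the pseudocount weighs on its size. Of 5 dendritic cell markers tested, Xcr1 among them, 2 rose and 1 fell in RM, none passed in HS, and 1 rose and 2 fell in RM-HS. The atypical, non-signalling receptors Ackr3 (0.93 ± 0.15 in RM) and Ackr2 (2.62 ± 0.67 in RM) rose in RM and RM-HS, and Ackr3 also in HS (0.65 ± 0.15). Ackr2 was low, at 0 to 18.9 in Sham (0 to 14 reads) and 20.1 to 47.6 in RM. Of 8 adhesion partners 5 rose in RM, 1 rose and 2 fell in HS, and 3 rose in RM-HS, with Icam1 at 1.19 ± 0.17, 0.05 ± 0.18 and 0.88 ± 0.21.

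Of 9 endothelial markers, 2 rose and 1 fell in RM, 2 rose and 5 fell in HS, and 2 rose and 2 fell in RM-HS, and their summed level was 11800 to 17169 in Sham, 13166 to 19361 in RM, 10473 to 13135 in HS and 13112 to 13291 in RM-HS. Flt1 rose in all 3 (1.87 ± 0.21 in RM), and Tek (-2.16 ± 0.28 in RM-HS) and Emcn (-1.77 ± 0.22 in RM-HS) fell in HS and RM-HS. Of 9 T and NK cell markers 2 rose in RM, none in HS and 1 in RM-HS, with summed levels of 404 to 1017 in Sham, 713 to 1343 in RM, 608 to 752 in HS and 755 to 1059 in RM-HS. Over all tested rows 53%, 46.4% and 42.3% passed in RM, HS and RM-HS. No marker of either list was at 0 throughout a group, and the part of these cells in the levels of the ligands was not tested.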

How the data were processed

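Stranded, paired-end mRNA libraries of frozen rat kidney were sequenced (per the labels' protocols). The submitters' processing notes name the build rn6, the quality tools SAMtools 1.0, Picard 1.119 and FastQC 0.11.2, the aligner STAR, the counter featureCounts of Subread 1.5.0, and DESeq2. The deposited signal is the authors' normalized read count per gene. No source used here gives the counting settings, strand included. Each library's size factor was estimated from its own values, with the smallest value above 0 as the first guess for 1 read. Multiplying by this fitted factor gave whole numbers for 100% of values, within 0.1. These were taken as reads, so read numbers rest on that fitted unit. Libraries held 45047179 to 109940948 reads, and no group was assigned by values. Replicate numbers follow the order of the samples.

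The 15954 rows that reached 10 in 3 or more libraries were tested with limma 3.58.1 in R 4.3.3, with a trend, on log2(value + 1), a scale that understates changes of low genes, in 1 fit of 4 group means. Errors are SE for log2 fold changes and SD for levels. The members and gene lists were chosen with earlier results of these data known. Named were all members, their receptors, the 3 members of each list with the smallest adjusted p against Sham, and the 3 rows most alike to each member, of which some are given. An item that this rule names is not reported here. Alternatives were pseudocounts of 0.5 and 8, 2 other filters, 2 other scalings, fits of only the groups compared, the library name's letter as a covariate or R alone, Sham 1 and Sham 6 alone, edgeR 4.0.16, DESeq2 1.42.0 and leaving out each library. The procedure was tested on simulated data.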

Additional observations from a re-analysis of the deposited data

Results flagged for a closer look

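Of 27 sets of 1 ligand in 1 group of 5 or 6 libraries, 2 held a library far from the rest of its group by Dixon's test at the 95% level. The test used the values without logs, and log2 values were not tested this way. Its rate of about 1 in 20 by chance holds for normally distributed values, which was not checked here. Cxcl2 stood at 485 in HS 3, against 12.8 to 82.8 in the other HS libraries. HS 3 also had the highest sum of neutrophil markers among the HS libraries, at 9078, most of it S100a8 (2557) and S100a9 (5097). Mitochondrial reads made up 42.2% in HS 3, against 47.5% to 54.7% in the other HS libraries. Its library name alone ends in the letter L. The part of any of these in its Cxcl2 level was not tested. Cxcl10 stood at 7026 in Sham 1, against 1531 to 3121 in the other Sham libraries. The summed interferon targets of Sham 1 were 10470, inside the Sham range of 7722 to 30967.

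The difference made by HS was tested with and without RM, as the departure from additivity, and it passed for 3 ligands. It was 3.14 for Ccl3, 2.70 for Ccl4 and -4.72 for Ccl20 on the log2 scale (limma adjusted p = 0.0014, 0.019 and 0.0003). All 3 rest on the 3 RM-HS libraries. Libraries named R hold 1 RM library, so a fit of them alone cannot decide whether these departures hold.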

How the results depend on the processing

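The number of ligands passing moved by more than 1.5 times as follows. In RM against Sham it went from 7 to 4 with the name letter as covariate and to 3 with Sham 1 and Sham 6 alone. In HS against Sham it went from 4 to 2 with Sham 1 and Sham 6 alone. In RM-HS against HS it went from 5 to 1 with the letter, to 1 with libraries named R alone and to 2 with edgeR. For additivity it went from 3 to 1 with the letter. Counts with R alone also moved in RM against Sham, in RM against HS and for additivity. Over all tested rows the count in RM against Sham went from 8455 to 4551 with the letter and to 5250 with Sham 1 and Sham 6 alone. In HS against Sham it went from 7410 to 4105 with those controls. In RM-HS against HS it went from 3287 to 2292 with the letter, to 1203 with R alone and to 3082 with edgeR. For additivity it went from 5054 to 617 with the letter. R alone leaves 1 RM library, so its counts in comparisons with RM are not given, and calls lost there are not particular to the ligands. The cause was not tested. Leaving out each library gave 6 to 7 passing ligands for RM, 3 to 4 for HS and 3 to 5 for RM-HS, each against Sham. It gave 0 to 0 between RM-HS and RM, 1 to 6 between RM-HS and HS, 5 to 5 between RM and HS, and 3 to 4 for additivity.

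Signs that turned were all of values that did not pass. With the letter as covariate these were Cx3cl1 in RM against Sham (0.27), Cxcl1 in HS against Sham (0.16), Cxcl2 (-1.11) and Ccl20 (0.18) in RM-HS against RM, Ccl4 in RM-HS against HS (-0.33), and Cxcl2 (-0.98), Cx3cl1 (-0.43) and Ccl7 (-0.078) for additivity. With R alone they were Cx3cl1 in RM against Sham (0.29), Cxcl1 (0.51) and Cxcl2 (0.25) in HS against Sham, Cxcl10 (-0.0067), Ccl2 (0.37), Ccl7 (1.19) and Ccl20 (1.23) in RM-HS against RM, Ccl4 in RM-HS against HS (-0.81), Ccl4 (-0.18) and Ccl20 (-0.79) in RM against HS, and Cxcl2 (-0.23) and Cx3cl1 (-0.44) for additivity. With Sham 1 and Sham 6 alone they were Cx3cl1 in RM (0.053), Cxcl1 (0.81) and Cxcl2 (1.38) in HS, Ccl3 in RM-HS (0.43), and Cxcl2 (-1.14) and Cx3cl1 (-0.064) for additivity. With edgeR and DESeq2 they were Cx3cl1 in RM against Sham (0.011 and 0.0021), Cxcl2 in RM-HS against RM (-0.25 and -0.24), Ccl4 in RM-HS against HS (-0.39 and -0.34) and Cx3cl1 for additivity (-0.058 and -0.027), the last also with scaling by trimmed mean of M values (-0.032).

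Leaving out 1 library turned the sign of values that did not pass, with ranges as given: Cx3cl1 in RM against Sham (-0.084 to 0.075), Cxcl1 in HS against Sham (-0.54 to 0.20), Ccl2 in RM-HS against Sham (-0.099 to 1.0), Ccl7 in RM-HS against RM (-0.40 to 0.041), Cxcl2 in RM-HS against RM (-0.086 to 0.57), Ccl20 in RM-HS against RM (-0.73 to 0.081), Cx3cl1 in RM-HS against HS (-0.12 to 0.080), Ccl4 in RM-HS against HS (-0.43 to 0.69), Cx3cl1 for additivity (-0.094 to 0.10) and Cxcl1 for additivity (-0.94 to 0.036).

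No paired analysis was made, because the labels do not link a library of one group to a library of another. Depth limited the low values, with as few as 0 reads for Ccl7, 6 for Ccl4 and 8 for Cxcl2 in HS and 19 for Ccl20 in Sham. The recovered Ccl4 counts shared a common divisor in every library, such as 6 in HS 5, 57 in HS 4 and 63 in RM-HS 1. A unit of that row may therefore not be a separate read, and its depth may be lower than these counts. The reason was not tested. The normalization of the deposited values includes mitochondrial reads, and size factors without them changed no count by more than 1.5 times. Of 1440 values over all alternatives 1286 kept direction and side of the threshold, 85 no longer passed, 10 passed newly and 59 turned sign.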
